A study of Mus musculus with 9 samples.

Results

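Imprinted genes that control growth were examined in endothelial cells (ECs) sorted from mouse bone marrow (BM). The genes were chosen by name and are H19, Igf2, Igf2r, Meg3, Rian, Dlk1, Peg3, Plagl1, Grb10 and Cdkn1c, 10 genes of a table of 46078 genes. These names stood on 13 rows, because Dlk1, Meg3 and Rian each had a second identifier, and those 3 rows held 0 counts in every library. RNA-seq was compared between 4 libraries of Sca-1+ ECs (end numbers 7, 13, 15 and 19) and 5 libraries of Sca-1- ECs (end numbers 8, 10, 14, 16 and 22), which the study calls Sca-1high and Sca-1low and takes as the cells of arterioles and sinusoids. All cells came from untreated wild type mice of strain B6 and were gated as CD45-Ter119-CD31+, and the labels give no age. Titles of the libraries 13, 14 and 22 also carry the tag CD452, library 10 a shortened form of it, and the libraries 8, 15, 16 and 19 the tag wt; the labels do not say whether these mark different mice, and an effect of this difference was not tested. The Sca-1+ library 15 and the Sca-1- library 16 carry the same number before the tag wt, which may name a shared mouse, though the labels do not say so. Whether the others came from separate animals is not stated either. The p-values therefore measure the spread between these libraries, which may be partly technical. The running numbers in the labels do not overlap between the fractions, and a batch that follows them cannot be told apart from the fraction.

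At an imprinted gene, the copy from one parent is expressed and the copy from the other is silenced, through DNA methylation set down in the germ line. Many genes of this kind act on growth: the paternally expressed Igf2 encodes a growth factor, and the maternally expressed Igf2r, Grb10 and Cdkn1c restrain growth by removing that factor, damping receptor signaling or blocking the cell cycle. In blood-forming tissue several of them are known for their part in the quiescence of stem cells. The reads were counted over both parental copies, so the values below are levels and not a measure of imprinting.

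The sequences at the starts of Igf2r, Airn and Grb10 are shown first, because Igf2r and Airn, an antisense RNA that starts inside Igf2r on the other strand, are read together below, and because Grb10 had the window richest in CpG among the members. A script counted the dinucleotide CG, which reads the same on both strands, in the 250 bases before each RefSeq start (GRCm38.p6), and CG is in capitals here. All 3 sequences are written 5′ to 3′ on the strand of the gene.
Igf2r (chr17:12769707-12769956, minus strand): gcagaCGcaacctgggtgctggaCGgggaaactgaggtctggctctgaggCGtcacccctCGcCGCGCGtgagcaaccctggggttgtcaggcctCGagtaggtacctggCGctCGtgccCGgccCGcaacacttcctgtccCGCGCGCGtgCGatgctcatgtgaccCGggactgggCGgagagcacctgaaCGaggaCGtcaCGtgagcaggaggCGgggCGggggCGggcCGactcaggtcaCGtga
Airn (chr17:12741061-12741310, plus strand): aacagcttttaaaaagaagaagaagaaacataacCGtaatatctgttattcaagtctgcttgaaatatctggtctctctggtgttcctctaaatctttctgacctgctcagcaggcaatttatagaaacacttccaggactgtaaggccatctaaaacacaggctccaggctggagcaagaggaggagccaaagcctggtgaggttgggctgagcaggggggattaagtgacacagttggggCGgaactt
Grb10 (chr11:12037421-12037670, minus strand): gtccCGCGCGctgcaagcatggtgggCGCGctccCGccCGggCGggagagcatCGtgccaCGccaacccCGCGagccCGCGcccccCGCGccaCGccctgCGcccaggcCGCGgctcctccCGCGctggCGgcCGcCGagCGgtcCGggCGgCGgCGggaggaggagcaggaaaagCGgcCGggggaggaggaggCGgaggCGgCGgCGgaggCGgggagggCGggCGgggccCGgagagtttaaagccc
The Igf2r window held 27 CG, more than 91.4% of the 32851 windows in the table, whereas the Airn window held 2, more than 18.8% of them. The Grb10 window held 40 CG, more than 98.7% of all windows, and a second Grb10 start had 8. The median over all windows was 6. Bases after the starts were not counted, so these values do not describe a whole promoter. Windows were listed for 8 of the 10 members and not for H19 and Cdkn1c. The first bases after the start were found in a GENCODE M21 transcript of the gene for Airn and for the second Grb10 start. They were not found there for the Igf2r and Grb10 starts printed above, so these RefSeq starts differ from that annotation.

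H19, Igf2, Meg3 and Rian also host microRNAs, with 2, 2, 3 and 6 mature sequences. Those of H19 and Igf2 (RefSeq, GRCm38.p6, bases 2 to 8 in capitals as the seed) are shown because the reads count the host transcript and not the mature microRNA.
miR-675-5p (chr7:142577112-142577133, minus strand, in an exon of H19): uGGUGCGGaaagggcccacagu
miR-675-3p (chr7:142577078-142577099, minus strand, in an exon of H19): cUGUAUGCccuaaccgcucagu
miR-483-5p (chr7:142654968-142654989, minus strand, outside the exons of Igf2): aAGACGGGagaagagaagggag
miR-483-3p (chr7:142654932-142654952, minus strand, outside the exons of Igf2): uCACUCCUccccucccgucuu
No seed was shared among these 4 microRNAs.

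The libraries held 21581653 to 25959818 counts. At this depth 3 counts, taken as the floor, were 0.0996 to 0.209 CPM (counts scaled to library size, here with edgeR's TMM factors). The sort was visible in the data, since Ly6a, the gene of Sca-1, had 874 to 1306 CPM in the Sca-1+ libraries and 0.240 to 1.49 CPM in the Sca-1- libraries. The label EC was met unequally. Cdh5, which encodes the junction protein VE-cadherin, had 235 to 297 CPM in Sca-1+ and 2.44 to 13.1 CPM in Sca-1-, and 16 of 18 general endothelial genes were higher in Sca-1+ with a median log2 fold change of 4.06. The 12 megakaryocyte markers summed to 32.6 to 76.9 CPM in Sca-1+ and 22670 to 86724 CPM in Sca-1-, and all 12 were lower in Sca-1+. Leukocyte markers summed to 119 to 195 CPM against 1564 to 2900 CPM, with 9 of 10 lower, and Ptprc, the gene of the gated-out antigen CD45, was at 0 to 2.56 CPM against 17.2 to 47.8 CPM. Erythroid markers summed to 102 to 226 CPM against 569 to 2363 CPM, with 5 of 8 lower. The 6 sinusoidal markers, which the study's reading would place in Sca-1-, summed to 632 to 1193 CPM in Sca-1+ and 51.5 to 221 CPM in Sca-1-, and 5 of them were higher in Sca-1+. All 8 arterial markers were higher in Sca-1+. No marker of these lists was at 0 across a fraction. Pecam1, the gene of the gating antigen CD31, did not differ by edgeR's quasi-likelihood test (log2 fold change 0.74 ± 0.49 (SE), adjusted p = 0.247). In bulk RNA, a smaller share of cells of one type and less RNA per cell cannot be told apart, and the part of these other cells in the results below was not tested.

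Of the 10 members, 7 passed the filter on low counts and 4 of those were higher in Sca-1+ ECs under TMM scaling: Cdkn1c, Igf2, Igf2r and Grb10. Under a scaling to endothelial genes given below, the log2 fold changes of Cdkn1c and Igf2 fell to 0.01 and 0.26, and Igf2r and Grb10 changed sign. Under TMM scaling Peg3, Meg3 and Plagl1 were not called by edgeR, and no member was lower, also at an unadjusted p under 0.05. By DESeq2 or limma voom no member was lower either. Across all 15937 genes tested, 44.8% were called, 23.3% higher and 21.4% lower in Sca-1+ (3721 and 3416 genes), so a call by itself was common. When libraries were scaled by total counts alone, the split over all genes became 4158 higher and 2431 lower. In 5 of the 7 members every Sca-1+ library lay above every Sca-1- library, which was true of 24.8% of all genes tested. The filter asks for a minimum level in at least 4 libraries and can be passed through the Sca-1+ libraries alone, so these counts account for the members and carry no further weight. The median log2 fold change of the 7 was 2.80, beside 0.07 over all genes tested.

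**Figure D1:**
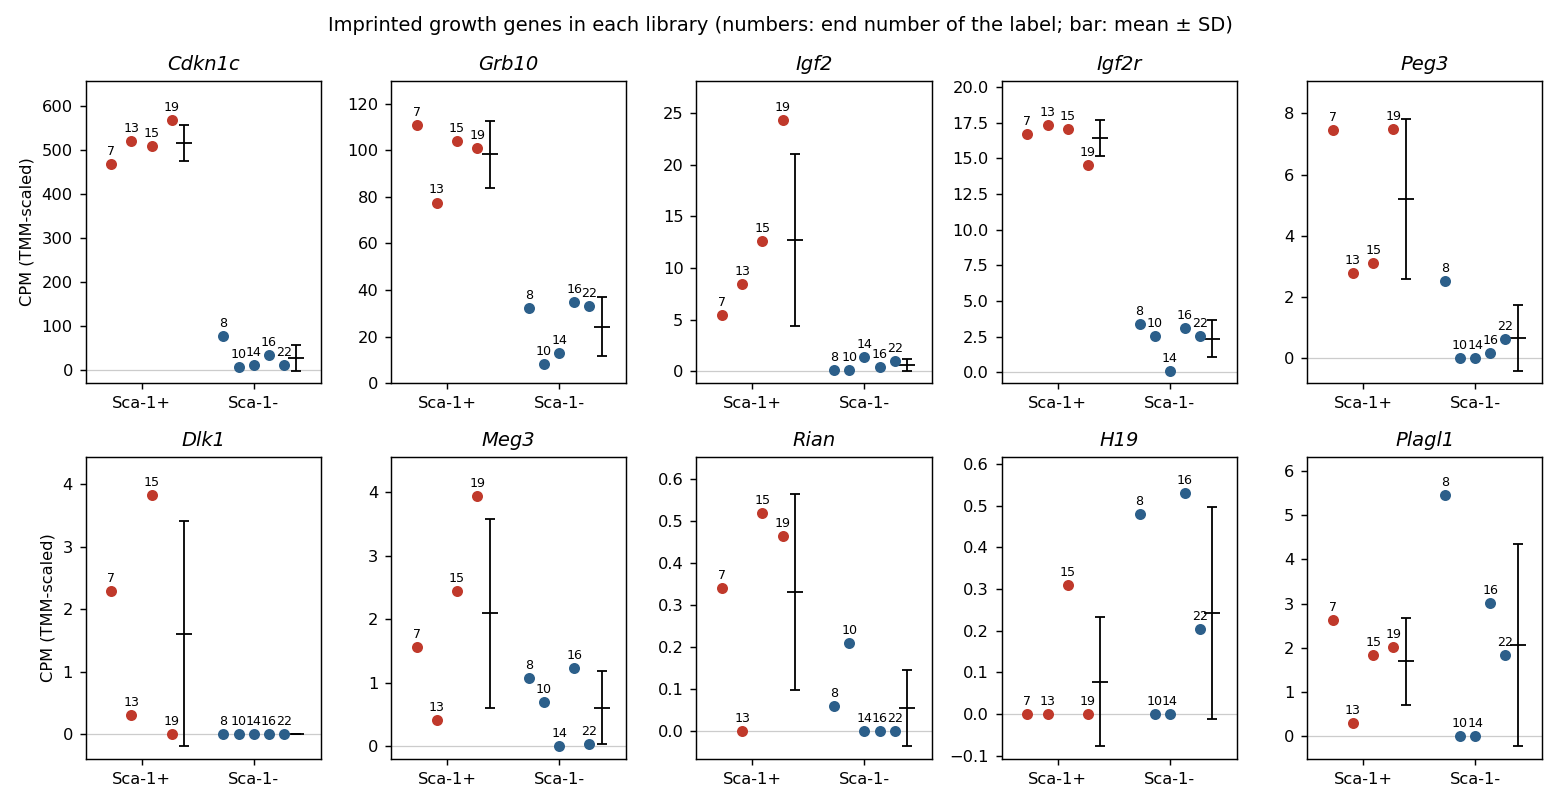
CPM (TMM-scaled) of each member in the 4 Sca-1+ libraries (red) and the 5 Sca-1- libraries (blue), 1 panel per gene with its own linear axis; numbers are the end numbers of the labels and the black bar is the mean ± SD. In Cdkn1c, Grb10, Igf2, Igf2r and Peg3 the red points all lie above the blue points, and in the other 5 genes the fractions overlap.

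Cdkn1c, which encodes the cyclin-dependent kinase inhibitor p57, was by far the highest member in Sca-1+ ECs. It lies on chr7 at 143458339 to 143461050 on the minus strand (GRCm38, as are all gene positions below), and its exons overlap no other annotated exon. Its level was 467, 519, 509 and 568 CPM in the Sca-1+ libraries 7, 13, 15 and 19, and 77.3, 6.63, 10.99, 34.8 and 12.7 CPM in the Sca-1- libraries 8, 10, 14, 16 and 22. The Sca-1+ libraries lay close together (516 ± 41.3 CPM, SD, n = 4), the Sca-1- libraries were spread more widely (28.5 ± 29.4 CPM, SD, n = 5), and the fractions did not overlap. The log2 fold change was 4.18 ± 0.69 (SE), with an adjusted p of 0.000816 by edgeR's quasi-likelihood test, and it was 4.91 without the Sca-1- library 8. Per exon length, Cdkn1c reached 859 ± 39.9 TPM (SD, n = 4) in Sca-1+, above 99.1% of the genes tested, and 33.2 ± 28.2 TPM (SD, n = 5) in Sca-1-, above 77.1% of them. Its reads were 76.0% to 82.9% of all member reads in the Sca-1+ libraries and 24.3% to 63.1% in the Sca-1- libraries.

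The other inhibitors of the same family went in opposite directions. Cdkn1a (p21) was also higher in Sca-1+, with 646 to 1368 CPM against 140 to 260 CPM, a log2 fold change of 2.34 ± 0.28 (SE) and an adjusted p of 0.000152 (edgeR). Cdkn1b (p27) was lower, with 4.57 to 6.03 CPM in Sca-1+ against 6.31 to 63.0 CPM in Sca-1-, a log2 fold change of -2.50 ± 0.67 (SE) and an adjusted p of 0.0123 (edgeR). Neither range overlapped between the fractions. In Sca-1+ ECs the order per exon length was Cdkn1a (952.5 TPM), Cdkn1c (859 TPM) and Cdkn1b (3.79 TPM), with overlapping ranges of Cdkn1a and Cdkn1c, and in Sca-1- libraries it was Cdkn1a (136 TPM), Cdkn1c (33.2 TPM) and Cdkn1b (13.05 TPM), with overlapping ranges of Cdkn1c and Cdkn1b. All 10 genes of the proliferation list were lower in Sca-1+ (summed 66.4 to 122 CPM against 285 to 916 CPM). The direction of Cdkn1a depended on scaling, with a log2 fold change of -0.16 when libraries were scaled to the 18 endothelial genes and -1.996 when Pecam1 and Esam were left out of them.

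**Figure D2:**
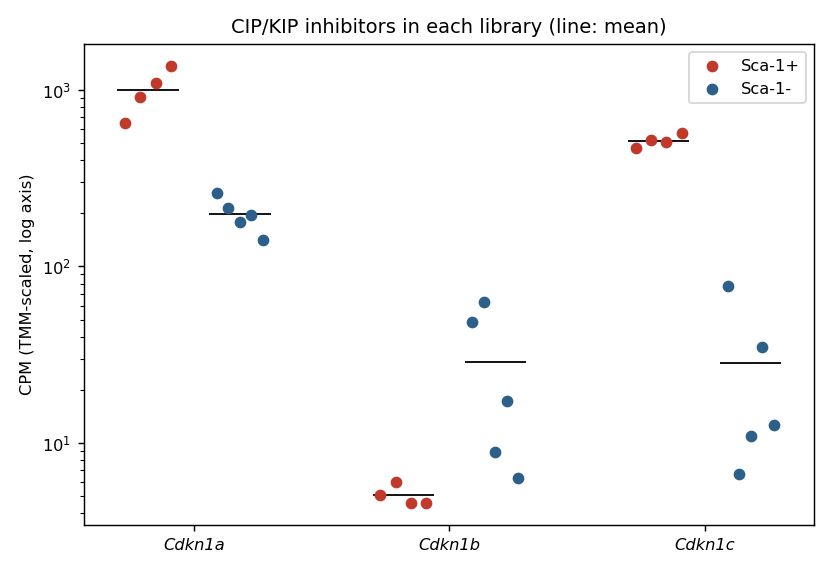
CPM (TMM-scaled, log axis) of Cdkn1a, Cdkn1b and Cdkn1c in each Sca-1+ library (red) and Sca-1- library (blue), with the mean as a line. Cdkn1a and Cdkn1c lie higher in the Sca-1+ libraries, and Cdkn1b lies lower there.

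Igf2, the fetal growth factor, was low but higher in Sca-1+ ECs. It lies on chr7 at 142650766 to 142666816 on the minus strand, and 1.71% of its exon bases are shared with the antisense gene Igf2os, so that part of its reads is uncertain. Its level was 5.42, 8.45, 12.6 and 24.3 CPM in the Sca-1+ libraries 7, 13, 15 and 19, and 0.120, 0.140, 1.36, 0.465 and 0.977 CPM in the Sca-1- libraries 8, 10, 14, 16 and 22. Library 19 was the highest, libraries 8 and 10 were under the floor with 2 counts each, and the fractions did not overlap. The log2 fold change was 4.33 ± 0.76 (SE), with an adjusted p of 0.00120 by edgeR's quasi-likelihood test. The Sca-1+ libraries followed the summed level of the 9 smooth muscle and pericyte markers only in part: that sum was highest in library 19 (1442 CPM), as Igf2 was, but lowest in library 13 (214 CPM), where Igf2 was not lowest. In Sca-1- the sum was 18.5 to 59.65 CPM, and no marker of this list was at 0 across a fraction. The part of these cells in the level of Igf2 was not tested.

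Igf2r encodes the receptor that carries IGF2 to the lysosome for breakdown, and it was higher in Sca-1+ ECs with little spread. It lies on chr17 at 12682406 to 12769664 on the minus strand. Its level was 16.7, 17.3, 17.1 and 14.6 CPM in the Sca-1+ libraries 7, 13, 15 and 19, and 3.42, 2.58, 0.127, 3.12 and 2.57 CPM in the Sca-1- libraries 8, 10, 14, 16 and 22. Library 14 stood far under the others with 3 counts, at the floor, and the fractions did not overlap. The log2 fold change was 2.80 ± 0.64 (SE), with an adjusted p of 0.00538 by edgeR's quasi-likelihood test. In 6 libraries with consecutive end numbers the call was lost, with an adjusted p of 0.0538 without a block and 0.0645 with the numbers as a block (edgeR).

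Airn, whose transcription silences the paternal Igf2r copy, was named after its values were seen. It starts 28.4 kb downstream of the Igf2r start on the opposite strand. The sequence shown above for Airn is poor in CpG but ends at that start, and the bases after it were not counted. It had 6.10, 4.84, 5.25 and 7.36 CPM in the Sca-1+ libraries 7, 13, 15 and 19, and 0.601 to 0.764 CPM in the 5 Sca-1- libraries. The fractions were far apart, with a log2 fold change of 3.15 ± 0.36 (SE) and an adjusted p of 0.000105 (edgeR). The use of strand in counting is not given in the sources used here, so unspliced reads of Igf2r that fall on exons of Airn cannot be told apart from Airn. M6pr, the cation-dependent relative of Igf2r among the mannose 6-phosphate receptors, was slightly lower, with 121 to 142 CPM in Sca-1+ against 198 to 272 CPM in Sca-1-, a log2 fold change of -0.74 ± 0.18 (SE) and an adjusted p of 0.00706 (edgeR), and it missed the threshold when libraries were scaled by total counts alone (-0.33).

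Grb10, which encodes an adaptor that binds and dampens the insulin and IGF1 receptors, was by mean level the second highest member in both fractions. In the Sca-1- libraries 10, 14 and 22, however, its CPM lay above that of Cdkn1c. Grb10 lies on chr11 at 11930508 to 12038683 on the minus strand. Its level was 111, 77.6, 104 and 101 CPM in the Sca-1+ libraries 7, 13, 15 and 19, and 32.1, 8.38, 13.1, 34.7 and 33.2 CPM in the Sca-1- libraries 8, 10, 14, 16 and 22. The fractions did not overlap, and the Sca-1- libraries fell into a lower pair (10 and 14) and 3 higher ones. The log2 fold change was 2.02 ± 0.41 (SE), with an adjusted p of 0.00262 by edgeR's quasi-likelihood test. Of its relatives, Grb14 (0.83 ± 1.16 on the log2 scale) and Grb7 (-1.45 ± 1.54) had overlapping fractions and adjusted p values of 0.588 and 0.47 (edgeR).

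The directions of Grb10 and Igf2r rested on how libraries were scaled. Counted per 1000 reads of the 18 general endothelial genes, Cdkn1c still separated the fractions, with 39.6 to 51.7 against 1.53 to 29.5, whereas Grb10 had 7.65 to 9.39 in Sca-1+ and 1.93 to 29.4 in Sca-1-, Igf2r 1.33 to 1.71 and 0.0734 to 2.64, and Igf2 0.459 to 2.21 and 0.0322 to 0.783. In the Sca-1- libraries 54.0% to 94.0% of the reads of that list came from Pecam1 and Esam, against 21.3% to 26.7% in Sca-1+. Scaling to the 18 genes moved the median log2 fold change of all genes to -2.53, and on that scale Cdkn1c stayed higher (1.69, adjusted p = 0.0349 by edgeR), Igf2 (1.58, adjusted p = 0.135) and Igf2r (0.24, adjusted p = 0.777) missed the threshold and Grb10 turned to -0.73 (adjusted p = 0.296). Without Pecam1 and Esam, a scaling chosen after seeing the data, the median of all genes was -4.20. Cdkn1c was then at 0.01 (adjusted p = 0.989 by edgeR) and Igf2 at 0.26 (adjusted p = 0.744 by edgeR). Igf2r was at -1.50 (adjusted p = 0.0685 by edgeR), and Grb10 was lower in Sca-1+ (-2.12, adjusted p = 8.52e-05 by edgeR). These values were all above the median of all genes, as they were under TMM. A change of scaling shifts all genes by a nearly common amount, so this was fixed in advance and carries no further weight.

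**Figure D3:**
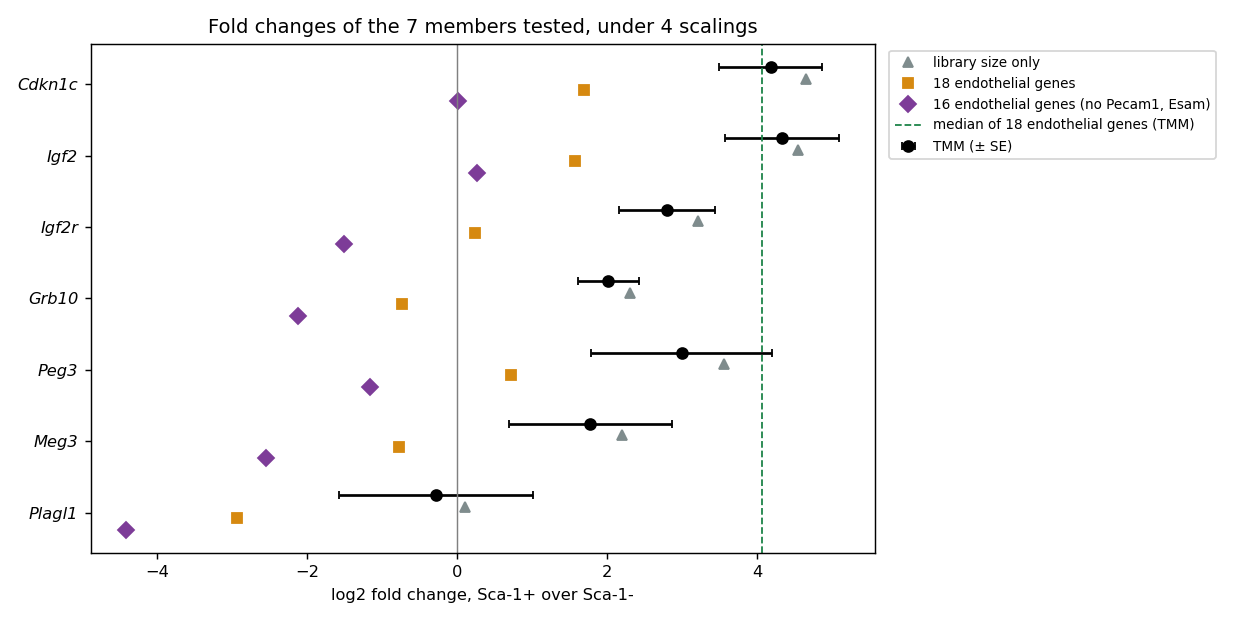
Log2 fold change of the 7 members tested (Sca-1+ over Sca-1-) under TMM scaling (black, ± SE), scaling by total counts (grey), by 18 endothelial genes (orange) and by those genes without Pecam1 and Esam (purple); the dashed line is the median of the 18 endothelial genes under TMM, 4.06. Cdkn1c and Igf2 lie near that line under TMM and near 0 in purple, and Igf2r, Grb10, Peg3 and Meg3 change sign between black and purple.

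Peg3, a paternally expressed zinc finger gene, was higher in every Sca-1+ library but missed the threshold. It lies on chr7 at 6703892 to 6730431 on the minus strand. Its level was 7.46, 2.79, 3.11 and 7.47 CPM in the Sca-1+ libraries 7, 13, 15 and 19, and 2.52, 0, 0, 0.166 and 0.611 CPM in the Sca-1- libraries 8, 10, 14, 16 and 22. The Sca-1- library 8 came close to the lowest Sca-1+ library. The log2 fold change was 2.99 ± 1.21 (SE), with an adjusted p of 0.0669 by edgeR's quasi-likelihood test. Without library 8 it was 4.59, with an adjusted p of 0.00943 (edgeR), and the value passed the threshold with DESeq2 (2.82, adjusted p = 0.0493), limma voom (4.66, adjusted p = 0.0047) and scaling by total counts (3.56, adjusted p = 0.0324 by edgeR). Library 8 also had the highest sum of the 10 mesenchymal stroma markers, 42105 CPM against 3299 to 19132 CPM in the other Sca-1- libraries and 583 to 2585 CPM in the Sca-1+ libraries, and the highest Cdkn1c of the Sca-1- libraries. Most of the sum in library 8 came from Col1a1 (27568 CPM) and Col1a2 (13061 CPM). The libraries 16 and 22 had the next sums (19132 and 18004 CPM), with Peg3 at 0.166 and 0.611 CPM. Of the 10 stroma markers 3 were higher in Sca-1+ (Lepr, Cxcl12 and Ebf3) and 2 lower (Col1a1 and Col1a2), and none was at 0 across a fraction. The part of stromal cells in the level of Peg3 was not tested.

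The genes of the Dlk1-Meg3 domain on chr12 were low, with no member of it above 4 CPM in any library. Dlk1, a paternally expressed membrane ligand related to the Notch ligands (109452823 to 109463336, plus strand), had 67, 9, 111 and 0 counts in the Sca-1+ libraries 7, 13, 15 and 19, and 0 counts in every Sca-1- library. The Sca-1+ libraries therefore disagreed among themselves from 0 to 3.83 CPM, and Dlk1 did not pass the filter. Its mean was at least 10.9-fold higher in Sca-1+ than the mean floor of 3 counts per Sca-1- library, and at least 5.84-fold higher without library 15. Without the filter its adjusted p was 0.0166 by edgeR and 0.000678 by DESeq2. Dlk2, its relative, also failed the filter, with 0.341 to 1.498 CPM in Sca-1+ and 0 to 0.0664 CPM in Sca-1-, and the fractions did not overlap.

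Meg3, a maternally expressed long non-coding RNA (109541001 to 109571726, plus strand), had 1.57, 0.409, 2.45 and 3.95 CPM in the Sca-1+ libraries 7, 13, 15 and 19, and 1.081, 0.698, 0, 1.23 and 0.0407 CPM in the Sca-1- libraries 8, 10, 14, 16 and 22. The fractions overlapped, with a log2 fold change of 1.78 ± 1.09 (SE) and an adjusted p of 0.21 by edgeR's quasi-likelihood test. Library 13 was the lowest and library 19 the highest among the Sca-1+ libraries. The same held for the summed smooth muscle and pericyte markers (214 and 1442 CPM) and for the summed arterial markers (1471 and 1855 CPM). It also held for the summed hematopoietic stem cell markers (413 and 495 CPM), but for no other marker list. Mesenchymal stroma markers, for example, were highest in library 7 (2585 CPM) and general endothelial genes in library 15 (11842 CPM). The part of any of these cells in the level of Meg3 was not tested. Of the Meg3 exon bases, 8.29% are shared with other annotated genes, most of them with an antisense gene, so this level is uncertain. Rian, the next maternally expressed RNA of the domain (109603940 to 109661716, plus strand), had 10, 0, 15 and 12 counts in Sca-1+ and 1, 3, 0, 0 and 0 counts in Sca-1-, and did not pass the filter. All 5 Sca-1- libraries were at or under the floor, and without the filter the adjusted p was 0.192 (edgeR). Mirg and Rtl1, from the same domain, had counts in 2 libraries and 1 library. A difference in Rian, Mirg or Rtl1 was not detectable at this depth.

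H19 and Plagl1 showed no difference between the fractions that these libraries could resolve. H19, a maternally expressed non-coding RNA downstream of Igf2 on chr7 (142575529 to 142578143, minus strand), had 0, 0, 9 and 0 counts in the Sca-1+ libraries 7, 13, 15 and 19, and 8, 0, 0, 16 and 5 counts in the Sca-1- libraries 8, 10, 14, 16 and 22. It was thus absent from the counts of 3 Sca-1+ libraries in which Igf2 had 159, 248 and 628 counts. H19 did not pass the filter, its log2 fold change without it was -1.57 ± 1.64 (SE, adjusted p = 0.485 by edgeR), and 9.15% of its exon bases are shared with other annotated genes, the microRNA gene of miR-675 among them. Plagl1, a paternally expressed zinc finger regulator of other imprinted genes (chr10, 13060504 to 13131694, plus strand), had 2.62, 0.307, 1.83 and 2.01 CPM in Sca-1+ and 5.47, 0, 0, 3.02 and 1.83 CPM in Sca-1-. The fractions overlapped throughout, and the log2 fold change was -0.29 ± 1.29 (SE, adjusted p = 0.876 by edgeR), with a sign that turned under several alternatives. Its relative Plagl2 was at -1.22 ± 0.49 (SE, adjusted p = 0.0645 by edgeR), and Plag1 was not tested.

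In order of mean TPM, the Sca-1+ ECs ran from Cdkn1c (859) and Grb10 (36.8) to Igf2 (7.42), Igf2r (6.01), Peg3 (1.33), Dlk1 (0.976), Plagl1 (0.740), Meg3 (0.389), H19 (0.106) and Rian (0.0614). The ranges of Cdkn1c and Grb10, of Grb10 and Igf2, and of Igf2r and Peg3 did not overlap, while those of Igf2 and Igf2r overlapped, as did every neighbouring pair from Peg3 down. In Sca-1- the order was Cdkn1c (33.2), Grb10 (7.26), Plagl1 (0.665), Igf2r (0.636), Igf2 (0.307), H19 (0.265), Peg3 (0.110), Meg3 (0.0799), Rian (0.00515) and Dlk1 (0). There the ranges of Grb10 and Plagl1 did not overlap, while Cdkn1c and Grb10 did.

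The IGF axis around Igf2, Igf2r and Grb10 was tested from a list of 23 other genes, of which 18 passed the filter, 6 were higher in Sca-1+, 4 were lower and 8 were not called. These are 33.3% higher and 22.2% lower, beside 23.3% and 21.4% of all genes tested. Of the binding proteins, which hold IGFs outside the cell, 4 were higher, and Igfbp5 (0.42 ± 0.50, adjusted p = 0.524 by edgeR) and Igfbp6 (0.49 ± 0.85, adjusted p = 0.665 by edgeR), with overlapping fractions, were not called. Igfbp7 was at 2668 to 3212 CPM against 13.8 to 124 CPM (log2 fold change 5.78 ± 0.62), Igfbp3 at 684 to 920 CPM against 3.90 to 15.03 CPM (6.31 ± 0.44) and Igfbp4 at 430 to 924 CPM against 16.4 to 85.4 CPM (3.69 ± 0.45). Igfbp2 was also higher (4.63 ± 1.46), with overlapping fractions, and it missed the threshold when library 7, 8 or 22 was left out, with log2 fold changes of 4.12, 4.28 and 4.41. Without the Sca-1- library 16, which held 574 counts against 0 to 39 in the other Sca-1- libraries, the log2 fold change was 7.45. The secreted stanniocalcin Stc1, an inhibitor of the protease that frees IGFs from binding proteins, was at 150 to 286 CPM against 0.933 to 7.11 CPM (5.78 ± 0.64).

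The growth factor Igf1 was higher in Sca-1+, with 63.6, 14.1, 29.9 and 31.6 CPM in the libraries 7, 13, 15 and 19 against 2.16 to 13.9 CPM (log2 fold change 2.47 ± 0.58, adjusted p = 0.00597 by edgeR). The receptor Igf1r, which carries the signal of both growth factors, was lower, with 1.74 to 6.62 CPM against 14.2 to 108 CPM (-3.77 ± 0.71, adjusted p = 0.00182 by edgeR). The receptor substrate Irs2 was lower as well (-2.97 ± 0.78, and -3.65 without the Sca-1+ library 19), while the insulin receptor Insr (0.87 ± 0.38) and Irs1 (-0.0049 ± 1.02) were not called. Igf2bp2, which encodes an RNA-binding protein of Igf2 mRNA, was lower (-2.47 ± 0.50); it fell under the level set for naming and was chosen after its values were seen. Scaling to the endothelial genes turned Igf1 to -0.10 (-1.77 without Pecam1 and Esam) and Igfbp4 to 0.86 (-0.47). These scalings lower every gene in Sca-1+, so that Igf1r and Irs2, which were already lower there, could not change direction.

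**Figure D4:**
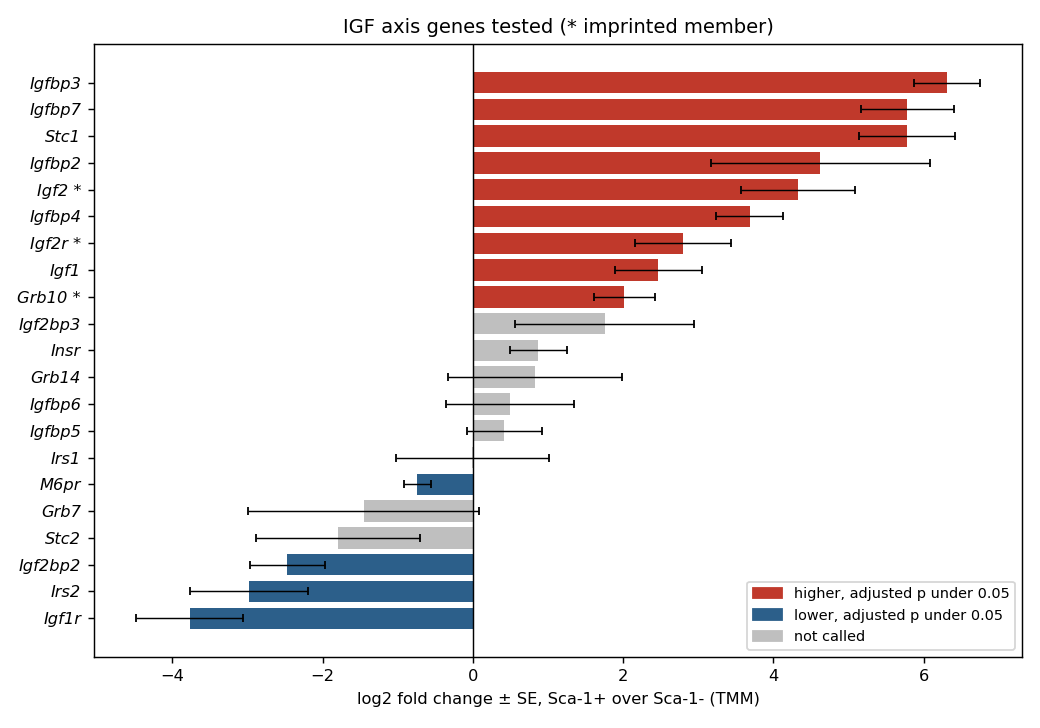
Log2 fold change ± SE (Sca-1+ over Sca-1-, TMM) of the IGF axis genes that were tested, with the members Igf2, Igf2r and Grb10 marked by an asterisk; red and blue bars passed an adjusted p of 0.05 in edgeR's quasi-likelihood test. Ligands and most called binding proteins lie to the right, at 2.47 to 6.31, and Igf1r lies at the left end at -3.77; Igf1, Igfbp4, Igf2r and Grb10 changed sign under a scaling to endothelial genes.

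Other genes listed as imprinted were called in about the same shares as genes in general. That list was written from general knowledge, and imprinting of its genes in these cells was not tested. Of 62 further symbols 60 were found and 42 passed the filter, of which 9 were higher, 11 lower and 22 not called, with a median log2 fold change of 0.26. These are 21.4% higher and 26.2% lower, beside 23.3% and 21.4% of all genes tested. The lower genes included Tspan32, a tetraspanin of blood cells (-7.54 ± 0.36), the hydrolase gene Mest (-4.87 ± 0.74), its overlapping antisense neighbour Copg2 (-4.00 ± 0.66), the cation transporter gene Slc22a3 near Igf2r (-3.31 ± 0.71), Zrsr1 (-3.23 ± 0.64), Trappc9 (-2.89 ± 0.44), Inpp5f (-1.93 ± 0.58) and Gnas, the stimulatory G protein subunit (-1.06 ± 0.33), and at levels under that set for naming Phlda2, Ddc and Peg10. The reads of Mest and Copg2 are uncertain, since 17.8% of the Copg2 exon bases lie on Mest exons. Inpp5f and Gnas each lost the call when the Sca-1+ library 7, 13 or 15 was left out, with log2 fold changes from -1.90 to -1.85 and from -1.07 to -0.98.

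The higher genes were the potassium channel gene Kcnq1 (8.40 ± 1.03), the protease inhibitor gene Tfpi2 (4.85 ± 0.46), the tetraspanin gene Cd81 (1.52 ± 0.36), Impact (1.47 ± 0.39) and Tssc4 (0.65 ± 0.16), and Airn, Snrpn, Nnat and Mcts2 at levels under that set for naming. Kcnq1 had 28.3 to 58.4 CPM in Sca-1+ against 0 to 0.661 CPM in Sca-1-, where it held 11 counts in library 8 and 0 or 1 count in the other libraries. The size of its fold change is therefore uncertain, and it was 11.35 without library 8. Cd81, Impact and Tssc4 took the opposite sign when libraries were scaled to the endothelial genes (-0.79, -1.28 and -1.95).

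Within 1 Mb of Cdkn1c, in the imprinted cluster of chr7 that also holds Igf2, 21 other genes were tested, of which 8 were higher, 3 lower and 10 not called. Over all genes tested, 23.3% were higher and 21.4% lower. The median log2 fold change of the 21 genes was 0.79, and within 1 Mb of the other members it ran from -2.45 (Grb10) to 1.09 (Peg3). Genes upstream of Cdkn1c differed among themselves. Phlda2, a maternally expressed growth restrainer of the placenta 42.1 kb away that was named after its values were seen, was lower in Sca-1+, with 0.581 to 1.14 CPM against 3.83 to 23.5 CPM (-3.63 ± 0.60, adjusted p = 0.000843 by edgeR). Slc22a18, between them at 12.7 kb, was higher in each Sca-1+ library, with 1.78 to 2.83 CPM against 0 to 1.19 CPM, but was not called (2.33 ± 1.05, adjusted p = 0.0968 by edgeR). Tnfrsf26, Tnfrsf22 and Tnfrsf23, at 168 to 225 kb and also named after their values were seen, were higher (4.16, 3.41 and 4.62). Kcnq1ot1, the antisense RNA that silences the cluster on the paternal copy, was also named after its values were seen and was not called (0.75 ± 0.46, adjusted p = 0.216 by edgeR), while Kcnq1, across which it runs, was higher and Tspan32, 456 kb away, was lower.

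**Figure D5:**
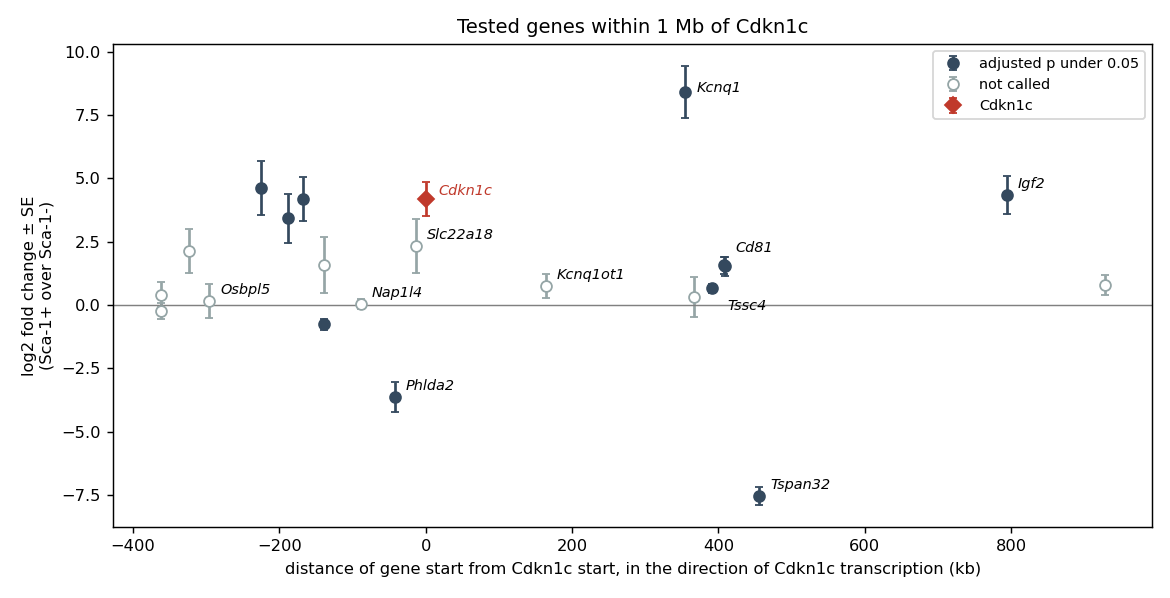
Log2 fold change ± SE (Sca-1+ over Sca-1-, TMM) of the 21 genes tested within 1 Mb of Cdkn1c, against the distance of their start from that of Cdkn1c in kb, along the direction in which Cdkn1c is transcribed; filled points passed an adjusted p of 0.05. Higher, lower and uncalled genes are interspersed along the cluster, from Kcnq1 at 8.40 (11.35 without the Sca-1- library 8) to Tspan32 at -7.54.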

How the data were processed

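RNA was measured in 9 libraries of sorted BM ECs, 4 Sca-1+ and 5 Sca-1-, made from 2 ng of total RNA each with a full-length cDNA kit (SMART-Seq v4) that primes on poly(A) tails and has no molecular identifiers, so floors cover counting error only. The authors deposited whole-number read counts per gene, not normalized. The submitters' processing notes name STAR, featureCounts and mm10, and versions, annotation release and strand setting are not given in the sources used here. Library totals were 21581653 to 25959818 counts. No replicates were copies of each other, since counts of each pair in a fraction differed by a chi-square of at least 36.8 per degree of freedom.

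Counts were filtered with filterByExpr (minimum count 10, minimum total 15), normalized by TMM and tested with the two-sided quasi-likelihood F-test of edgeR 4.0.16 (R 4.3.3), and p-values of the 15937 genes that passed were adjusted together by the Benjamini-Hochberg method, with calls made under 0.05. Standard errors came from the F statistic. CPM used TMM-scaled library sizes, log2 CPM a prior count of 2, and TPM the union of exons in GENCODE M21 (GRCm38), in which 45229 of 46078 identifiers were found. The steps were tested on simulated data. Members and lists were chosen with earlier results of these data known. Genes of the other imprinted and IGF axis lists were named where the adjusted p was under 0.05 and the average log2 CPM at least 3 (up to 8 higher and 8 lower per list), and relatives of the members whatever they did. Alternatives changed the normalization, filter, test (DESeq2 1.42.0, limma 3.58.1 voom), pairing, gene length or libraries included. Promoter and microRNA sequences came from RefSeq tables of GRCm38.p6. Plots used matplotlib 3.10.9 in Python 3.11.15.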

Additional observations from a re-analysis of the deposited data

Results flagged for a closer look

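Among 19 sets of values examined (members with counts in a fraction), 2 held a library far from the rest of its fraction by Dixon's ratio, and chance flags about 1 set in 20. Igf2r in the Sca-1- library 14 had a log2 CPM of -2.26, from 3 counts, against 1.40 to 1.81 in the other Sca-1- libraries. H19 in the Sca-1+ library 15 had a log2 CPM of -1.35, from 9 counts, against -3.63 in the other 3 Sca-1+ libraries, which held 0 counts. With those 3 tied, any count in library 15 would have been flagged, so the chance rate does not apply to H19.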

How the results depend on the processing

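The calls of Cdkn1c, Igf2, Igf2r and Grb10 were kept under RLE size factors, upper quartile, total counts, no filter, a robust fit, DESeq2, limma voom, the shared mouse number as a replicate block (4 members called) and each library left out (4 to 5 members, 5957 to 6969 genes and 28 to 32 other imprinted and IGF axis genes called). Scaling to the 18 endothelial genes gave 12064 genes called (475 higher), 1 member and 40 other imprinted and IGF axis genes. Leaving out Pecam1 and Esam from that list (chosen after seeing the data) gave 14280 genes (232 higher), 2 members, Grb10 and Plagl1, both lower (-4.41 for Plagl1), and 47 of the other imprinted and IGF axis genes (43 lower). This follows from the construction, which centres the libraries on genes with a median log2 fold change of 4.06 and so lowers all genes in Sca-1+ (median -2.53 and -4.20).

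With that common shift, signs turned under the 18-gene scaling for Grb10 (-0.73), Meg3 (-0.77), Cdkn1a (-0.16), Grb14 (-1.49), Igf1 (-0.10), Tssc4 (-1.95), Impact (-1.28), Cd81 (-0.79) and Kcnq1ot1 (-2.07). Without Pecam1 and Esam they were Grb10 -2.12, Igf2r -1.50, Meg3 -2.55, Peg3 -1.16, Cdkn1a -1.996, Grb14 -3.35, Igf1 -1.77, Tssc4 -3.65, Impact -2.77, Cd81 -2.92, Igfbp4 -0.47, Airn -1.10 and Kcnq1ot1 -3.40. Plagl1 turned to 0.11 with total counts, 1.37 with limma voom and 0.13 in the block of consecutive numbers, and ranged from -0.69 to 0.40 over libraries left out. Grb7 turned to 1.88 with that block and 0.76 in the same 6 libraries without it, and ranged from -1.83 to 0.73 over libraries left out. The cause of the turns of Plagl1 and Grb7 was not tested.

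Consecutive end numbers (7 and 8, 13 and 14, 15 and 16) correlated by 0.147, 0.148 and 0.042 in their deviations from the fraction means. The other combinations of a Sca-1+ and a Sca-1- library ran from -0.191 to 0.065. The values of 7 and 8 and of 13 and 14 were thus the highest, but that of 15 and 16 was not above all others. The labels state no pairing, and the main test took the libraries as unpaired. Whether consecutive numbers mark pairs was not tested. With consecutive numbers as a replicate block, 4340 genes were called against 5360 in the same 6 libraries without it, and 3 members in both. Depth limits H19 and Rian, which had 16 and 15 counts at most in a library. Dlk1 ranged from 0 to 111 counts among Sca-1+ libraries of similar totals. With the longest transcript as gene length, mean TPM in Sca-1+ was 716 for Cdkn1c, 51.4 for Grb10, 4.89 for Igf2r and 0.108 for Rian.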
